A study of Danio rerio with 416 samples.

Results

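The cells described here were the MZoep embryonic cells with the most and with the least transcript of tbx16, a T-box transcription factor gene of the margin. MZoep embryos lack both the maternal and the zygotic function of one-eyed pinhead (allele tz57), the zebrafish EGF-CFC co-receptor encoded by tdgf1 that Nodal ligands need. Among MZoep cells with full-length SMART-seq2 libraries, those with at least 1500 gene rows at an FPKM of 1 or more were ranked by tbx16. FPKM is a read level corrected for transcript length and library size. These were 79, 80, 61 and 25 cells of the library preparation batches p1 to p4, and 31 cells with fewer rows were left out. The members were chosen by their own tbx16 values, as the 60 highest (tbx16-high) and the 60 lowest (tbx16-low), and the remaining cells lay between. They are 120 of the 416 cells measured in all. The question is which genes of the margin go with tbx16 in embryos that cannot receive Nodal.

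All embryos were at 50% epiboly, when the spreading blastoderm has reached the equator of the egg. Yolk was removed by hand, embryos were broken up mechanically and single cells were picked by hand. Another 88 MZoep tz57 cells had 5-prime libraries that count molecules by a molecular tag (UMI), and 52 wild-type TLAB cells had full-length libraries. Each sample is 1 cell, and no label ties cells to an embryo or clutch. Each genotype was therefore treated as 1 sample, no test across cells was made, and folds and shares below describe these cells. No pair of kept columns was identical.

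In the normal zebrafish blastula, the margin next to the yolk gives rise to mesoderm and endoderm and the animal side to ectoderm. Nodal ligands from the yolk and margin induce most of the mesendoderm, above all on the dorsal side, while Wnt8, FGF and BMP signals pattern its ventral and lateral parts. The T-box genes tbx16 and tbxta, and the homeobox genes eve1 and cdx4, mark the margin and later the tail bud. The dorsal margin, or organizer, makes the BMP antagonist Chordin.

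The tbx16 levels that chose the cells ranged over 134.43 to 230.75 FPKM in tbx16-high cells (median 159.4) and over 0 to 75.36 FPKM in tbx16-low cells (median 55.5). The next cell outside the tbx16-high group had 134.09 FPKM and the next outside the tbx16-low group had 75.64 FPKM, so the groups were ends of a continuous range. Only 1 cell was listed at 0. All tbx16-low cells but 1 thus had tbx16 reads, and the ranking did not separate cells with from cells without the transcript. Batches p1, p2, p3 and p4 gave 16, 24, 15 and 5 of the tbx16-high cells and 30, 15, 8 and 7 of the tbx16-low cells. The median number of rows at FPKM 1 or more was 7509 in tbx16-high and 7044 in tbx16-low cells, and 1 and 10 cells of these groups had fewer than 5000. The part of depth and batch in the values below was not tested, and values within batches are given for some genes only. The level of tdgf1 averaged 43.2 FPKM in tbx16-high and 51.3 FPKM in tbx16-low cells, which says nothing of the allele's function.

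Of the markers that name the margin, eve1 was far higher in tbx16-high cells. The level of wnt8a, a Wnt ligand gene of the ventrolateral margin, averaged 4.86 FPKM in tbx16-high and 1.82 FPKM in tbx16-low cells and was detected in 23 and 13 of the 60 cells. Its log2 ratio of 1.05 was 0.86 without the highest cell, 0.10 within p2 and 0.09 within p4. Here and below, the highest cell of a row was left out of the group that held it, and the other group was kept whole. The animal-side marker sox2, a SoxB1 gene of prospective neural ectoderm, averaged 14.8 FPKM in tbx16-high and 12.6 FPKM in tbx16-low cells and was detected in 42 and 37 cells. Another SoxB1 gene, sox3, averaged 360.6 and 365.1 FPKM in tbx16-high and tbx16-low cells. The log2 ratio of sox2, 0.22, was -0.25 with cells ranked within batches, -0.11 without p2 and -0.07 in cells with at least 5000 rows, and in separate 5-prime cells, described below, it was -0.94. The direction of sox2 thus depended on the cells compared, and the groups are called by their tbx16 level and not by a position in the embryo.

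Ratios are of the mean FPKM plus 1 in tbx16-high over tbx16-low cells, on a log2 scale. Of 6962 rows detected at FPKM 1 or more in 20% of the cells of 1 group and averaging 5 FPKM in 1 group, 1.74% were at least 2-fold higher in tbx16-high cells and 2.28% at least 2-fold lower. The median row had a ratio of 0.12. This split of higher and lower rows depended on the scaling. Higher rows were 43.2% of those past 2-fold. They were 30.3% after centring on the median row, 32.2% after leaving out the 10 most abundant rows and 33.3% with 10 FPKM added. Without the highest cell of each row they were 67.96%, and for means of log2 values 98.1%. The 12 rows most higher and the 12 most lower that kept their sign in each batch and without the highest cell are named below.

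Transcription factor genes of the margin headed the higher rows. The largest ratio was that of eve1, a homeobox gene of the ventral margin, at 3.51. In tbx16-high cells eve1 ranged over 0 to 701 FPKM with a median of 90.9, and in tbx16-low cells over 0 to 219.6 FPKM with a median of 0. The ranges overlapped, and 19 tbx16-high cells exceeded every tbx16-low cell. The T-box gene tbxta, known as no tail or brachyury and needed for notochord and posterior mesoderm, averaged 79.5 FPKM in tbx16-high and 7.23 FPKM in tbx16-low cells (ratio 3.29). It reached 525 FPKM in tbx16-high and 108.8 FPKM in tbx16-low cells, with medians of 15.5 and 0 FPKM. The caudal-type homeobox gene cdx4, needed for posterior body formation, averaged 45.7 FPKM in tbx16-high and 6.22 FPKM in tbx16-low cells (2.69). All 3 genes had their ratio above 2 in each of the 4 batches.

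The Mix-type homeobox gene mixl1, known in zebrafish as a Nodal-responsive gene of the mesendoderm, averaged 12.7 FPKM in tbx16-high and 1.11 FPKM in tbx16-low cells (2.71). It was detected in 31 and 10 cells, and 21 tbx16-high cells exceeded the highest tbx16-low cell, which had 11.1 FPKM. Within the batches its ratio was between 2.52 and 2.91. The msh-type homeobox genes msx3, msx1b and msx1a, which respond to BMP, had ratios of 2.90, 2.71 and 2.24. Transcript of msx3 was detected in 30 tbx16-high and 3 tbx16-low cells, and msx1a in 19 and 2. The hairy-related repressor genes her1 and her7, known from the segmentation clock, had ratios of 1.91 and 1.45, and her7 averaged 58.4 FPKM in tbx16-high and 20.7 FPKM in tbx16-low cells. The remaining named higher rows were znf703, a zinc finger gene (2.17), szl, discussed with BMP (1.97), atp1b3a, a sodium pump subunit gene (1.82), and the unannotated cabz01092285.1 (1.88).

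**Figure D1:**
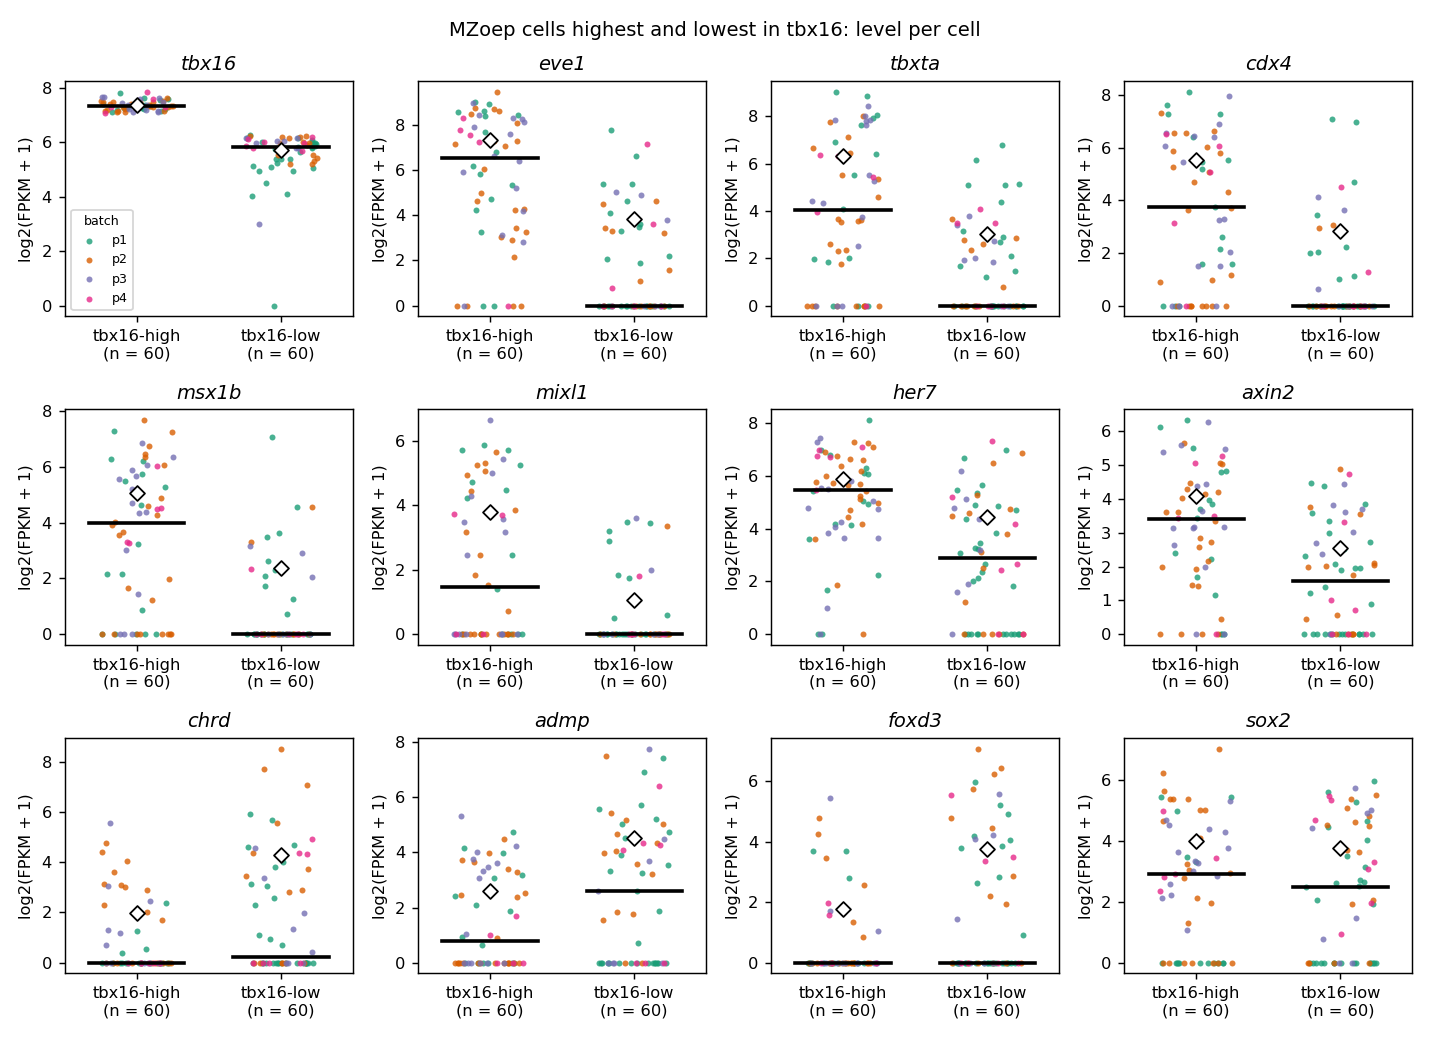
Level in each of 60 tbx16-high and 60 tbx16-low MZoep cells for tbx16, which chose the cells, and 11 other genes, as log2(FPKM + 1) on the vertical axis. Points are cells coloured by batch, bars are medians and diamonds are the log2 of the group mean plus 1. The medians of eve1 are 90.9 FPKM in tbx16-high and 0 FPKM in tbx16-low cells, the groups overlap for every gene but tbx16, and chrd, admp and foxd3 have their highest cells in the tbx16-low group.

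Most tbx16-high cells held several of these transcripts together. At least 3 of the 6 genes eve1, tbxta, cdx4, msx1b, mixl1 and her1 were detected in 46 of 60 tbx16-high cells (76.7%, exact 95% interval 63.96% to 86.6%) and in 16 of 60 tbx16-low cells (26.7%, 16.1% to 39.7%). None was detected in 0 of 60 tbx16-high cells, which allows a share of up to 5.96%, and in 13 of 60 tbx16-low cells (21.7%, 12.1% to 34.2%). Both eve1 and tbxta were detected in 41 tbx16-high cells, in 45.6% of the cells between and in 16 tbx16-low cells. The 6 genes were named for their high ratios in these same cells, so their wider detection in tbx16-high cells followed in part from that choice. The intervals cover counting error over cells only. Detection also moves with the number of rows seen per cell, which was lower in tbx16-low cells.

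The genes differed in how they followed tbx16 over the whole range. Over 5 bins of 49 cells in the order of tbx16, eve1 averaged 15.01, 33.1, 82.4, 72.5 and 183.98 FPKM, and tbxta 7.94, 13.3, 35.9, 39.2 and 91.5 FPKM. Both were flat between the third and the fourth bin. The means of mixl1 were 0.94, 2.80, 6.06, 9.43 and 13.1 FPKM, without such a plateau. The highest bin was not the highest for her1, at 2.01, 3.62, 5.55, 9.97 and 8.11 FPKM. Among the genes lower in tbx16-high cells, chrd averaged 15.02, 24.04, 6.32, 3.58 and 3.16 FPKM, so its highest mean lay in the second bin and not in the lowest.

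**Figure D2:**
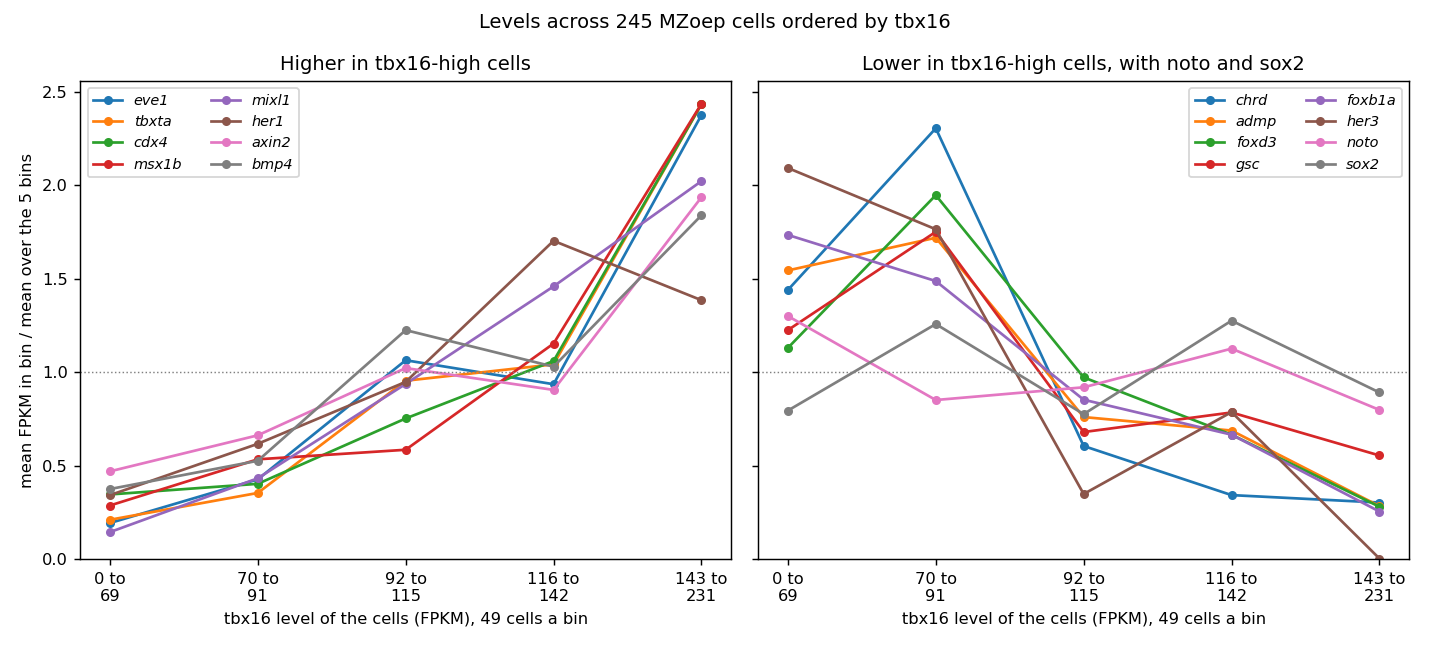
Mean FPKM of 16 genes in 5 bins of 49 MZoep cells ordered by tbx16, divided by the mean over the bins (vertical axis, 1 is the dotted line), against the tbx16 range of each bin in FPKM. In the left panel all genes but her1 are highest in the last bin. In the right panel chrd, admp, foxd3 and gsc peak in the second bin, while sox2 follows no direction.

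Lists of genes by role place these rows among their pathways. A list member counts as measured when detected at FPKM 1 or more in 5% of the cells of 1 group. By that rule 16594 rows were measured, of which 310 were at least 2-fold higher in tbx16-high cells (1.87%) and 345 at least 2-fold lower (2.08%), with a median ratio of 0.08. Of 33 margin mesoderm genes 21 were measured, and of these 11 were at least 2-fold higher and 1 lower, with a median of 1.05. Beside those named above, the 11 held wnt5b, a Wnt ligand gene (1.71), aldh1a2, the gene of the enzyme that makes retinoic acid in mesoderm (2.18, detected in 13 and 4 cells), aplnrb, an Apelin and Apela receptor gene (1.59), drl, a zinc finger gene of ventral mesoderm (1.37), and dld, a Delta ligand gene of Notch (1.22). The other Apelin receptor gene, aplnra, averaged 16.7 FPKM in tbx16-high and 34.96 FPKM in tbx16-low cells (-1.02). Without the highest cell its ratio was -0.70, and within p4 it was 0.04. The 2 paralogues thus differed in direction over all cells.

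The other 12 members of the margin list were not measured in MZoep cells. They included the ligand genes fgf8a, fgf3, fgf4 and fgf24, the basic helix-loop-helix genes msgn1, mespaa and mespab of presomitic mesoderm, and pcdh8, a protocadherin gene of paraxial mesoderm. The level of fgf8a averaged 0.16 FPKM in tbx16-high and 0.07 FPKM in tbx16-low cells and was detected in 1 cell of each. Tbx6 was at FPKM 1 in no cell of either group.

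Part of the Wnt pathway list was higher in tbx16-high cells. Of 23 measured Wnt genes 8 were at least 2-fold higher and 0 lower, with a median of 0.58. This median was 0.31, 0.19, 0.88 and 0.26 within p1 to p4. It was 0.37 with cells ranked within batches and 0.32 in cells with at least 5000 rows. The gene axin2, which restrains β-catenin and is a common readout of canonical Wnt signalling, averaged 16.02 FPKM in tbx16-high and 4.82 FPKM in tbx16-low cells (1.55) and was detected in 49 and 33 of the 60 cells. Its ratio was between 1.04 and 2.098 within the batches. Notum1a, which removes the lipid of Wnt ligands (1.58), nkd1, an inhibitor (1.46), and sp5a, a zinc finger target of Wnt8 (1.32), lay in the same direction. Another Sp-family gene, sp5l, averaged 61.7 FPKM in tbx16-high and 41.1 FPKM in tbx16-low cells (0.58). For dkk1b, a secreted inhibitor of the Lrp co-receptors that is also dorsal, the ratio of 1.41 was -0.99 within p1 and -4.03 within p4. Of receptor and effector genes, the ratios were 0.18 for fzd7a, 0.90 for fzd10, 0.35 for ctnnb1 (β-catenin), 0.71 for lef1 (1.31 without the highest cell) and -0.19 for tcf7l1a.

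Part of the BMP list was higher too. BMP ligands from the ventral side act through Smad1 and Smad5 and are bound by Chordin. Of 32 measured BMP genes 12 were at least 2-fold higher and 1, chrd, lower, with a median of 0.64. The ligand genes bmp4, bmp7a and bmp2b had ratios of 1.66, 1.19 and 0.75. The level of bmp4 averaged 22.7 FPKM in tbx16-high and 6.48 FPKM in tbx16-low cells, and its ratio was between 1.25 and 2.22 within the batches. The ventral homeobox repressor gene ved averaged 919 FPKM in tbx16-high and 321 FPKM in tbx16-low cells (1.52) and was detected in 60 and 56 cells. The related vent and vox had ratios of 1.23 and 0.71. Genes that limit or modulate BMP signalling differed among themselves, with chrd lower, nog1 at -0.73 and bmper at 0.10. Higher were bambia, a decoy receptor gene (1.07), smad6a, an inhibitory Smad gene (1.36, and 0.92 without the highest cell), and szl, the gene of Sizzled, which blocks the proteases that cut Chordin. The szl level averaged 106.1 FPKM in tbx16-high and 26.4 FPKM in tbx16-low cells, with ratios of 1.77, 4.31, 0.58 and 5.90 within p1 to p4. The common target gene id1 averaged 530 and 491 FPKM in tbx16-high and tbx16-low cells (0.11).

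The FGF and Notch lists gave less. None of 16 measured FGF pathway genes was 2-fold apart in either direction, and their median was 0.22. The ETS factor gene etv4, a target of FGF, averaged 52.7 FPKM in tbx16-high and 44.2 FPKM in tbx16-low cells (0.25), and the Erk phosphatase gene dusp6 had a ratio of 0.28. Of 20 Notch and hairy-related genes 3 were at least 2-fold higher, which were her1, her7 and dld, and 1 was lower, her3.

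**Figure D3:**
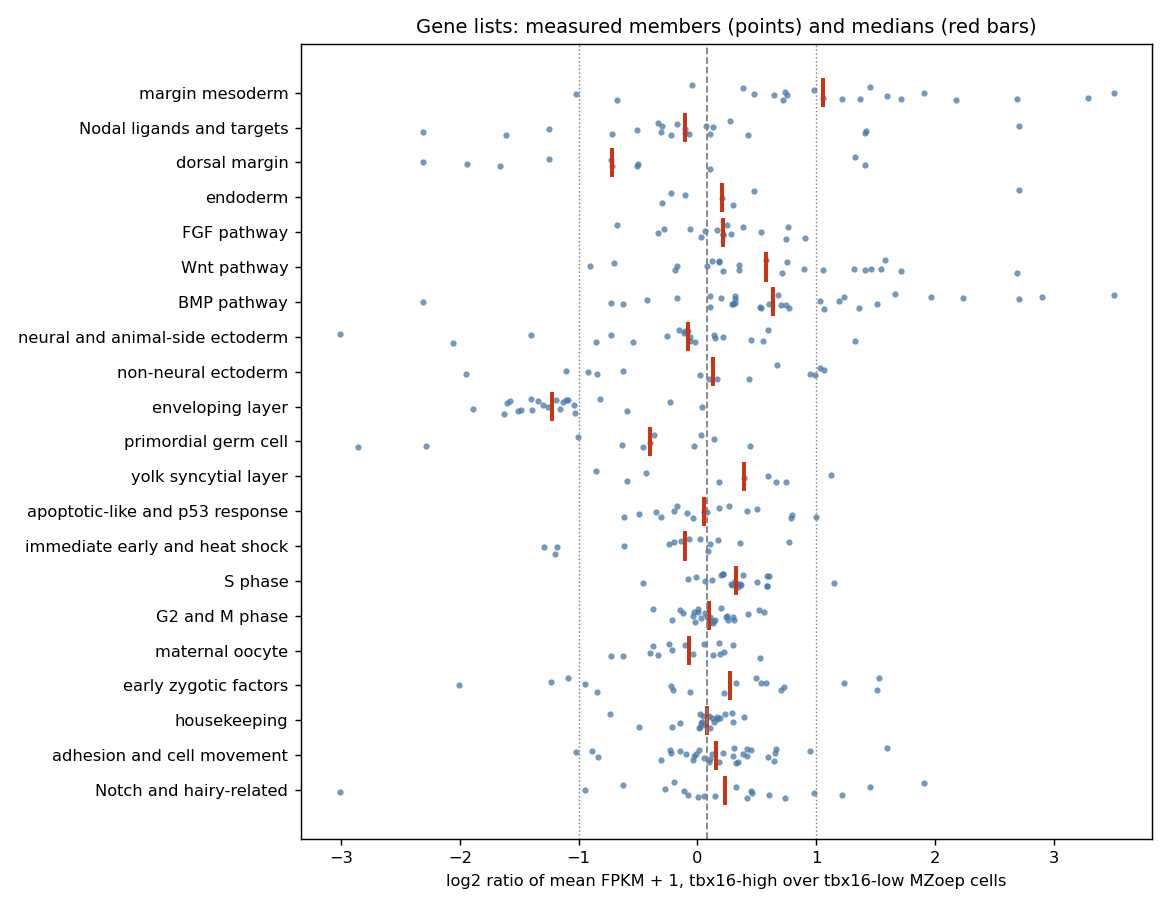
Log2 ratios of mean FPKM plus 1 in tbx16-high over tbx16-low MZoep cells (horizontal axis) for the measured members of 21 gene lists. Points are genes, red bars list medians, the dashed line the median of all measured rows at 0.08 and the dotted lines 2-fold. The margin mesoderm list has its median at 1.05 and the enveloping layer list at -1.22.

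Part of the dorsal margin list lay on the other side. Of 11 measured dorsal genes 4 were at least 2-fold lower in tbx16-high cells and 2 higher, with a median of -0.72. One of the 11, cers5, entered by an alias and is not a dorsal marker. The BMP antagonist gene chrd averaged 2.97 FPKM in tbx16-high and 18.7 FPKM in tbx16-low cells (-2.31). It reached 45.6 FPKM in tbx16-high and 365 FPKM in tbx16-low cells, and 18 and 27 cells had it at FPKM 1 or more. Its ratio was -2.53, -3.28, -0.14 and -3.41 within p1 to p4 and -1.80 without the highest cell. The BMP-like ligand gene admp averaged 5.05 FPKM in tbx16-high and 22.2 FPKM in tbx16-low cells (-1.94), and its ratio lay between -3.65 and -1.63 within the batches. The organizer homeobox gene gsc averaged 1.89 FPKM in tbx16-high and 5.88 FPKM in tbx16-low cells (-1.25). Its ratio was 0.00 within p4.

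Other dorsal genes rested on few cells. The ratio of -1.66 for dharma, a maternal β-catenin target, was 0.61 without the cells of p2. Noto, a notochord homeobox gene, averaged 9.34 FPKM in tbx16-high and 13.7 FPKM in tbx16-low cells (-0.51). Besides dkk1b, zic2a, a zinc finger gene also counted with neural ectoderm, was higher (1.32). At 10 FPKM or more, chrd was found in 5 of 60 tbx16-high cells (8.33%, exact 95% interval 2.76% to 18.4%), in 20% of the cells between and in 16 of 60 tbx16-low cells (26.7%, 16.1% to 39.7%). Cells with both chrd and eve1 at 10 FPKM or more numbered 2 among tbx16-high, 14 among those between and 3 among tbx16-low cells.

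Genes known to need Nodal went in both directions. Of 26 listed ligands and targets 21 were measured, of which 3 were at least 2-fold higher (mixl1, dkk1b and osr1) and 3 at least 2-fold lower (chrd, ndr1 and gsc), with a median of -0.10. The Nodal ligand gene ndr1 had a ratio of -1.61, which was -0.18 without the highest cell. The feedback inhibitor gene lft1 averaged 0.14 FPKM in tbx16-high and 0.24 FPKM in tbx16-low cells, and lft2 0.18 and 0.24 FPKM. The endoderm factor gene sox32 averaged 2.43 FPKM in tbx16-high and 3.23 FPKM in tbx16-low cells (-0.30). Transcript of osr1, a zinc finger gene of mesendoderm, was detected in 5 tbx16-high cells and listed at 0 in every tbx16-low cell. Of 7 measured endoderm genes mixl1 alone was at least 2-fold apart.

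Most ectoderm genes were less than 2-fold apart. Of 21 measured neural and animal-side genes 1 was at least 2-fold higher in tbx16-high cells and 3 lower, with a median of -0.08. Without the highest cell of each row 1 was higher and 3 lower. By any amount 7 of the 21 were higher in tbx16-high cells, against 58.6% of all measured rows. In separate 5-prime cells, described below, 5 of 17 were higher, against 45.2% of measured rows. The largest negative ratio of all named rows was that of her3, a hairy-related repressor gene of the neural plate, at -3.01. It was detected in 1 of 60 tbx16-high cells (1.67%, exact 95% interval 0.042% to 8.94%) and in 15 of 60 tbx16-low cells (25%, 14.7% to 37.9%). As her3 was named for its ratio in these same cells, this difference in detection followed in part from that choice. Its intervals cover counting error over cells only. The forkhead gene foxb1a, of the neural plate, averaged 1.48 FPKM in tbx16-high and 9.31 FPKM in tbx16-low cells (-2.06, and -1.09 without p2). Foxd3, a forkhead gene active in the early blastula and later in dorsal mesoderm and neural crest, averaged 2.40 FPKM in tbx16-high and 12.6 FPKM in tbx16-low cells (-2.00), and its ratio was between -2.97 and -1.41 within the batches. Of 14 non-neural ectoderm genes 9 were higher by any amount. At least 2-fold higher were 2, gata2a and bambia, and 2, gata3 and dlx3b, were lower. Without the highest cell of each row 3 were higher and 0 lower, where lower rows among all 16594 measured fell from 345 to 94. Transcript of dlx3b was listed at 0 in all tbx16-high cells and detected in 4 tbx16-low cells.

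Transcripts of other cell types were uneven in the tbx16-low group. Of 22 measured genes of the enveloping layer, the outer epithelium of the blastoderm, 18 were at least 2-fold lower in tbx16-high cells and 0 higher, with a median of -1.22. Without the highest cell of each row 4 were lower and 1 higher. The keratin gene krt4 averaged 77.2 FPKM in tbx16-high and 158.5 FPKM in tbx16-low cells, with medians of 56.1 and 39.5 FPKM, so mean and median differed in direction. The summed level of all 23 listed genes ranged over 237.2 to 2984 FPKM in tbx16-high cells and over 191.2 to 23316 FPKM in tbx16-low cells. Its medians were 846 and 829 FPKM. It exceeded 4000 FPKM in 0 tbx16-high, 1 intermediate and 5 tbx16-low cells. List medians were -1.95, -0.12, -2.07 and 0.21 within p1 to p4. Without these 5 cells and 1 tbx16-low cell rich in germ cell transcript, the median of the list was 0.20, and rows at least 2-fold lower made up 0.91% in place of 2.28%. The named lower rows include anxa1c, an annexin gene of this list, at -1.89.

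Germ cell transcripts rested on 1 cell. The germ cell genes nanos3 and dnd1 averaged 6.51 and 2.93 FPKM in tbx16-high and 53.5 and 18.2 FPKM in tbx16-low cells. A single tbx16-low cell had 2925 FPKM of nanos3 and 974 FPKM of dnd1, and without the highest cell of each row the ratios were 0.37 and 0.41. Of 9 measured genes of the yolk syncytial layer 1, apoc1, an apolipoprotein gene, was at least 2-fold higher (1.12), at 222.8 FPKM in tbx16-high and 101.8 FPKM in tbx16-low cells. The summed level of that list had medians of 849 FPKM in tbx16-high and 474 FPKM in tbx16-low cells, ranging over 286 to 2461 and over 0 to 2401 FPKM. Its defining factor gene mxtx1 averaged 0.78 and 0.52 FPKM. The part of these transcripts in the margin gene ratios was not tested. Without the 6 cells, the median of the margin mesoderm list was 1.22, against 1.05 with them.

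Most lists of general cell state stood near the median row. The medians were 0.08 for 22 housekeeping genes, 0.10 for 27 genes of the G2 and M phases, 0.32 for 22 genes of the S phase, 0.06 for 17 genes of the p53 response and -0.07 for 16 maternal oocyte genes. Of these, mcm2, a replicative helicase subunit gene, was the only gene at least 2-fold apart (1.15). Of the 22 S phase genes 19 were higher in tbx16-high cells by any amount, against 58.6% of all measured rows. In separate 5-prime cells, described below, 19 of 22 were higher as well (median 0.14), against 45.2% of measured rows. Of 14 immediate early and heat shock genes 3 were at least 2-fold lower in tbx16-high cells (hsp90aa1.2, ier2a and hsp70.3), and 0 without the highest cell of each row. Of 18 early zygotic factors 3 were higher and 3 lower, and of 32 adhesion genes aplnrb was higher and aplnra lower. Without the highest cell of each row, 1 early zygotic factor and 0 adhesion genes were lower. Lower rows among all 16594 measured fell from 345 to 94 in that setting, so these losses are not particular to the lists. The other named lower rows were alox5b.3 (-1.66), a lipoxygenase gene by its symbol, acy3.2 (-1.78), rnasep_nuc (-1.84) and 3 unannotated rows with ratios of -2.24, -1.86 and -1.78. Some of these rested on the 6 tbx16-low cells rich in enveloping layer or germ cell transcripts. Without them the ratio of alox5b.3 was -0.05, that of rnasep_nuc -1.40, and those of the first 2 unannotated rows -0.78 and -0.23.

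The 5-prime cells had no part in the choice of members and gave separate cells of the same genotype. Of 88 cells 86 had at least 500 genes, and the 21 highest and 21 lowest in tbx16 UMI counts per 1000000 (CPM) were compared. They held 966149 and 964826 UMIs in all, between 29246 and 58951 a cell. Ratios are of summed CPM plus 10, with exact 95% Poisson intervals for counting error. Of 7611 rows past like filters 1.8% were at least 2-fold higher in tbx16-high cells and 2.9% lower.

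Margin genes were higher in tbx16-high cells here as well. Summed over the 21 cells, eve1 had 446 UMIs in tbx16-high and 44 in tbx16-low cells, or 462 CPM (420 to 507) and 45.6 CPM (33.1 to 61.2), a ratio of 3.08. The levels in tbx16-high and tbx16-low cells were 317.8 and 33.2 CPM for tbxta (2.92), 157.3 and 20.7 CPM for cdx4 (2.44), and 131.4 and 16.6 CPM for msx1b (2.41). They were 74.5 and 7.26 CPM for her1 (2.29) and 45.5 and 9.33 CPM for mixl1 (1.52). Of the 12 named higher rows 11 passed the filters here, all 11 were higher in tbx16-high cells and 9 at least 2-fold. The smallest were szl at 0.65 and atp1b3a at 0.17.

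Several dorsal genes were lower here. Chordin transcript had 8.28 CPM (3.57 to 16.3) in tbx16-high cells and 242.5 CPM (212.45 to 275.7) in tbx16-low cells, a ratio of -3.79. It was found in 6 and 14 of the 21 cells, with at most 2 UMIs in a tbx16-high and 69 UMIs in a tbx16-low cell. Gsc had 3.11 CPM in tbx16-high and 49.8 CPM in tbx16-low cells (-2.19), and noto 32.1 and 117.1 CPM (-1.60). For admp the levels were 40.4 and 125.4 CPM (-1.43), for foxd3 33.1 and 124.4 CPM (-1.64) and for foxb1a 4.14 and 35.2 CPM (-1.68). Of the 12 named lower rows 6 passed the filters, 4 of them at least 2-fold lower (chrd, foxb1a, foxd3 and admp), and the others, rnasep_nuc and alox5b.3, had ratios of 0.09 and 0.04. Transcript of sox2 numbered 42 UMIs in tbx16-high and 89 in tbx16-low cells (-0.94), where the full-length cells had a ratio of 0.22.

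Over whole tables the overlap was partial. Among 6113 rows past the filters in both data sets, 25 rows were at least 2-fold higher in both, 31.3% of the 80 so in full-length cells and 30.1% of the 83 in 5-prime cells, where 1.36% of all these rows were. At least 2-fold lower in both were 16 rows, 16.7% of those so in full-length cells and 12.5% of those in 5-prime cells, against 2.09% of all rows. By the rule for lists, 14151 rows were measured in 5-prime cells, 1.29% of them at least 2-fold higher and 2.25% lower. The margin mesoderm list had 13 of 24 measured genes higher and 1 lower (median 1.01), the Wnt list 6 of 23 higher and 0 lower (0.46), the BMP list 7 of 29 higher and 1 lower (0.43) and the dorsal list 2 of 9 higher and 4 lower (-0.95). The enveloping layer list had 0 of 22 in either direction (-0.19). The germ cell list had 7 of 11 lower (-1.29), and 1 tbx16-low cell held 580 of the 627 nanos3 UMIs of that group.

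**Figure D4:**
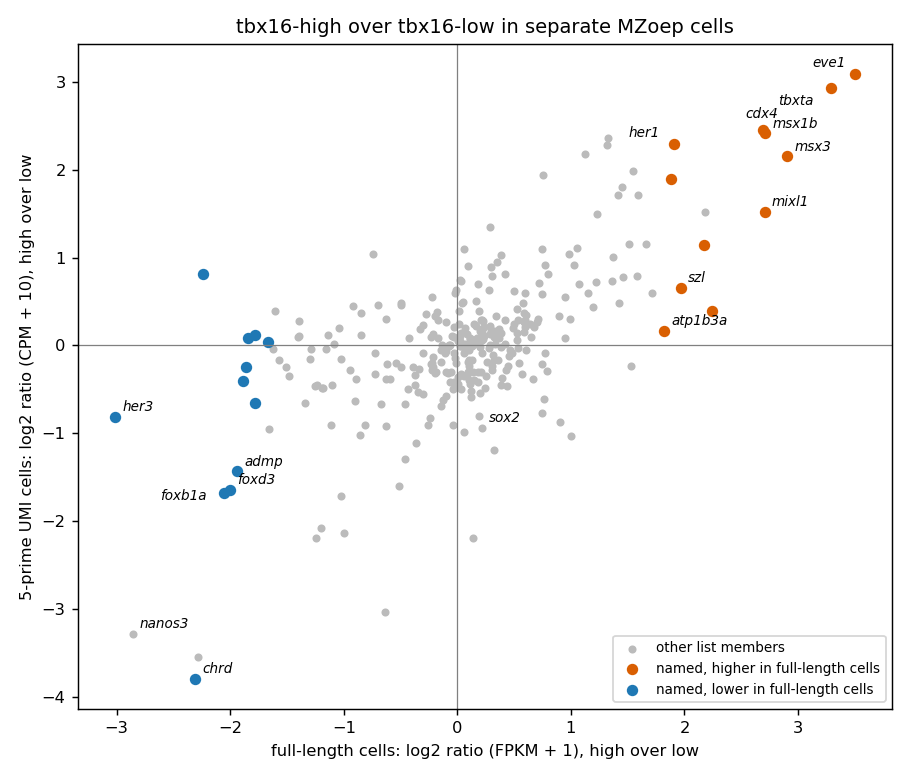
Log2 ratios of tbx16-high over tbx16-low MZoep cells in full-length libraries (horizontal axis, FPKM + 1, 60 and 60 cells) and in 5-prime UMI libraries (vertical axis, CPM + 10, 21 and 21 cells). Orange and blue points are the named rows, which the horizontal axis chose, and grey points other list members. Orange points reach 3.08 on the vertical axis and none is below 0, while blue points run between -3.79 and 0.81.

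Wild-type cells, which receive Nodal, were ranked in the same way for comparison. The 12 highest and the 12 lowest of 47 kept cells had tbx16 levels of 158.6 to 295.4 FPKM and of 13.9 to 55.7 FPKM. Batch and tbx16 level cannot be told apart in this ranking, since p2 gave 9 of the tbx16-high and 0 of the tbx16-low cells while p3 and p4 gave 2 of the tbx16-high and all 12 tbx16-low cells. Of 6905 rows past the filters 1245 were at least 2-fold higher (18%) and 657 lower (9.51%). In the rest of this comparison, wild-type values therefore come from ranking within each batch, 10 highest against 10 lowest cells, unless stated otherwise. They are set beside 60 and 60 MZoep cells ranked in that way. By the rule for lists, this gave 1.6% of 16564 MZoep rows higher and 2.09% lower, and 10.5% of 16561 wild-type rows higher and 12.8% lower. With 10 cells a group, more rows pass 2-fold, and the difference between genotypes was not tested. The wild-type groups also differed in p53 response genes. Of 18 measured, 7 were at least 2-fold lower and 4 higher in tbx16-high wild-type cells (median -0.71), against 0 of 17 either way in MZoep. The part of such cells in the wild-type ratios was not tested.

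The margin genes eve1, tbxta, cdx4 and mixl1 were higher in the tbx16-high cells of both genotypes. In MZoep and wild-type cells ranked within batches, the ratios were 3.34 and 4.06 for eve1, 2.91 and 3.68 for tbxta, 3.47 and 4.25 for cdx4 and 2.89 and 3.62 for mixl1. Those of wnt8a were 0.75 and 1.80, of sox2 -0.25 and -1.76 and of sox3 -0.02 and -1.16. Wild-type sox2 averaged only 0.10 FPKM in tbx16-high and 2.71 FPKM in tbx16-low cells. Of the 12 named higher rows, 6 passed the filters in wild type ranked over all batches, and all 6 were higher. The tbx16-high cells of MZoep had a mean mixl1 level of 12.998 FPKM and those of wild type 68.3 FPKM, while eve1 averaged 160.4 FPKM in MZoep and 83.998 FPKM in wild type. The wild-type groups held no p1 cells, as too few were measured, while the MZoep groups drew on p1 to p4. The tbx16 levels of these groups were not matched between genotypes, and the differences in level were not tested. Of measured margin mesoderm genes, 8 of 20 in MZoep and 23 of 30 in wild type were at least 2-fold higher, and 2 and 0 lower. Genes not measured in MZoep cells made up part of the difference. In wild-type tbx16-high and tbx16-low cells, msgn1 averaged 29.8 and 0 FPKM, mespab 26.1 and 0 FPKM, and fgf8a 35.6 and 3.85 FPKM. Being measured took fewer cells in the smaller wild-type groups than in MZoep. Genes at 0 in tbx16-low wild-type cells, such as msgn1 and mespab, were measured only through tbx16-high cells. Their direction was thus fixed by the rule for lists, and the shares of the genotypes are not like for like. The same limit holds for the dorsal and Nodal counts below.

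The dorsal genes chrd and gsc had opposite signs in the genotypes, and so had dharma (-1.73 in MZoep and 2.60 in wild type). The MZoep sign of dharma turned without p2 in the groups ranked over all batches. Smaller MZoep ratios of noto (-0.42) and nog1 (-0.82) stood beside wild-type ratios of 2.71 and 3.38. The MZoep means of nog1 were only 0.10 FPKM in tbx16-high and 0.94 FPKM in tbx16-low cells. Signs were also opposite for ndr1 (-1.47 and 3.98) and foxb1a (-2.22 and 2.49). In the groups ranked over all batches, most of the MZoep ratio of ndr1 rested on its highest cell. By contrast, dkk1b (1.26 in MZoep and 3.51 in wild type) and zic2a (1.39 and 4.15) were higher in both. For dkk1b the sign did not hold in every MZoep batch. In the groups ranked over all batches, its ratio was negative within p1 and p4. In wild-type cells chrd averaged 40.3 FPKM in tbx16-high and 4.299 FPKM in tbx16-low cells (2.96), whereas in MZoep cells ranked in that way it averaged 2.84 and 20.5 FPKM (-2.49). For gsc the wild-type means were 44.7 and 2.35 FPKM (3.77) and the MZoep means 1.81 and 6.18 FPKM (-1.35). Of measured dorsal genes, 2 of 11 in MZoep and 12 of 15 in wild type were at least 2-fold higher in tbx16-high cells, and 4 and 1 lower. The 1 dorsal gene lower in wild type was admp, at 7.44 and 16.3 FPKM (-1.04), where MZoep cells had -2.09. Of the Nodal list, 3 of 22 in MZoep and 22 of 25 in wild type were at least 2-fold higher, and 3 and 0 lower. Its medians were -0.21 and 3.36. The Wnt list had 8 of 23 higher in MZoep and 11 of 23 in wild type, and the BMP list 12 of 32 in MZoep and 9 of 31 in wild type. At least 2-fold lower were 1 Wnt and 1 BMP gene in MZoep and 0 Wnt and 3 BMP genes in wild type. One of the 3 was szl, which averaged 6.93 FPKM in tbx16-high and 38.3 FPKM in tbx16-low wild-type cells (-2.31), where MZoep cells had 2.16.

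**Figure D5:**
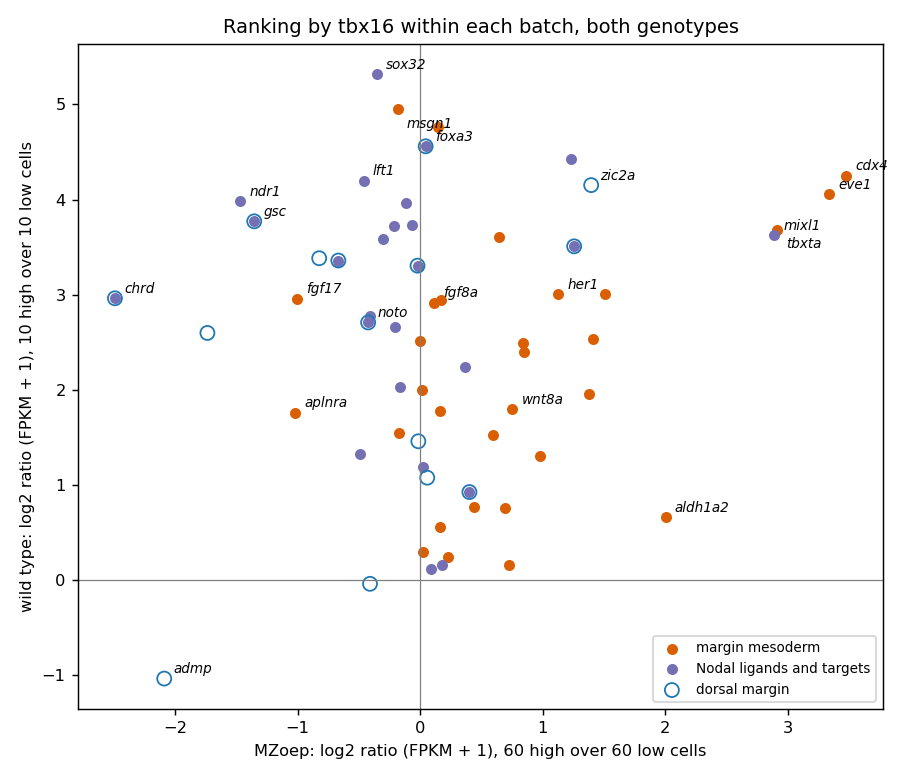
Log2 ratios (FPKM + 1) of tbx16-high over tbx16-low cells ranked within each batch, in MZoep (horizontal axis, 60 and 60 cells) and in wild type (vertical axis, 10 and 10 cells), for members of 3 gene lists measured in either. Points are genes and open circles mark the dorsal margin list. The genes eve1, tbxta, cdx4 and mixl1 stand at the right and top, with MZoep ratios of 2.89 to 3.47, and chrd and gsc stand at the left and top.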

How the data were processed

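Full-length SMART-seq2 values were deposited by the authors as FPKM per gene row and cell (25208 rows), and the 5-prime values as UMI counts per gene and cell (19205 rows). Bowtie2, RSEM and build GRCz10 were named, per the submitters' processing notes, and versions, annotation and filters are not given in the sources. The 328 columns that the count table holds for full-length cells are 0 throughout and were left aside. FPKM is relative, and sequencing depth of the full-length cells is unknown, so intervals are given only for shares of cells (exact Clopper-Pearson, 95%) and UMI counts (exact Poisson), and cover counting error only. File symbols were printed in lower case or, for 1440 rows, as the current RefSeq symbol of assembly GRCz12tu.

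Means over cells were compared as log2 ratios of FPKM plus 1, or CPM plus 10, with Python 3.11.15, pandas 2.3.3, numpy 2.4.6 and scipy 1.17.1, and the code was checked on simulated data. The filters on level were FPKM 1 in 20% of cells and a mean of 5 FPKM (20 CPM) in 1 group. Named rows are the 12 highest and 12 lowest ratios that kept their sign without the highest cell and in every batch with 5 cells in both groups, plus markers, tdgf1 and list members at least 2-fold apart. The 21 lists hold 395 gene rows. Members and lists were chosen with earlier results of these data known, and the chrd alias was added once the rows had been seen. No doublet caller was run and cells were not clustered. Alternatives were other pseudocounts, filters, group sizes, means of log2 values, rescaling, ranking within batches and leaving out batches or cells.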

Additional observations from a re-analysis of the deposited data

Results flagged for a closer look

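Only named rows and list members past the filters in both genotypes were searched here. For 5 of these genes the ratio of tbx16-high over tbx16-low cells had opposite signs in MZoep and in wild type. It was at least 2-fold in each and in both wild-type rankings. The lists hold 395 gene rows, and how many genes were searched was not counted, so no share stands beside the 5. The counts over all rows that follow did not ask for 2-fold within batches and cannot serve as that share. Over all batches, 6051 rows passed the filters in both genotypes. Of 79 at least 2-fold higher in MZoep, 30 were at least 2-fold higher in wild type as well and 6 at least 2-fold lower. Of 71 at least 2-fold lower in MZoep, 9 were at least 2-fold lower in wild type as well and 19 at least 2-fold higher. Of all 6051 rows, 15.2% were at least 2-fold higher in wild type and 7.97% lower. The difference between the genotypes was not tested. In wild type, batch and tbx16 level cannot be told apart in the ranking over all batches. That ranking gave these counts and the first wild-type value of each gene below. The ratio of chrd was -2.31 in MZoep, against 3.02 in wild type and 2.96 in wild type ranked within batches. That of gsc was -1.25 in MZoep, against 2.24 and 3.77 in the wild-type rankings. The epithelial genes cyt1 and krt18a.1 had -1.39 and -1.48 in MZoep, against 1.55 and 1.35 in wild type and 1.89 and 1.04 within batches. Both belong to the enveloping layer list, and without the highest cell the MZoep ratio of cyt1 was -0.06. For gata3, a zinc finger gene of ventral ectoderm, the ratio was -1.11 in MZoep, against 1.59 and 1.23 in wild type, and without the highest cell it was -0.76 in MZoep.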

How the results depend on the processing

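No paired analysis was possible because no label pairs a tbx16-high cell with a tbx16-low cell; the batches both groups share were used for ranking within batches and for leaving out batches. Under 13 alternatives the 24 named rows gave 312 values, of which 44 moved by more than the SD between batches. That SD was wide for some rows, between 0.16 for mixl1 and 2.41 for szl. Of the 24 named rows, 10 stayed at least 2-fold apart under every alternative. The sign of the named rows was part of how they were chosen and is no measure of stability. Rows at least 2-fold higher and lower in tbx16-high cells, 1.74% and 2.28% as reported, were 0.187% and 0.373% with 10 FPKM added, 4.57% and 0.0862% for means of log2 values (where the median row moved to 0.36), 1.36% and 1.63% without the filter on low values (316 and 380 rows) and 5.82% and 3.45% for 40 cells a group (median row 0.21). Lower rows were 0.833% without the highest cell of each row, 1.098% in cells with at least 5000 rows and 0.909% without cells rich in enveloping layer or germ cell transcripts. Higher rows were 3.19% without p2 and 2.84% without p3. The higher share of calls was 62.8% for 40 cells a group, 57.6% without p3 and 66.3% without the cells rich in other transcripts. The margin mesoderm median was 0.51 with 10 FPKM added, 0.84 ranked within batches, 0.87, 1.27 and 0.85 without p1, p2 and p3. The dorsal median was -0.23 with 10 FPKM added, -0.17 for means of log2 values, -0.30 without the highest cell and -0.41 in cells with at least 5000 rows. The enveloping layer median turned to 0.010 for means of log2 values and 0.20 without the cells rich in its transcripts. Among ratios at least 2-fold apart, signs turned for nanos3 and dnd1 with means of log2 values (0.30 and 0.064), 40 cells a group (0.24 and 0.12), the highest cell left out (0.37 and 0.41), p2 left out (0.70 and 0.065) and cells rich in other transcripts left out (0.56 and 0.39), and for dharma without p2 (0.61). Of smaller ratios, sox2 turned from 0.22 to -0.25 ranked within batches, -0.11 without p2 and -0.07 in cells with at least 5000 rows, and tdgf1 from -0.24 to 0.03 with means of log2 values. In 5-prime cells the shares of higher and lower rows, 1.8% and 2.9%, were 3.599% and 6.97% for 14 cells a group, 0.342% and 0.381% with 30 CPM added and 1.077% and 1.33% without the highest cell. In wild type, 18% and 9.51% became 2.58% and 1.49% with 10 FPKM added, lower rows were 5.07% without the highest cell, higher rows 10.9% ranked within batches, and admp turned to -1.04 within batches. The causes were not tested. Settings for cells rich in enveloping layer or germ cell transcripts, and those of the 5-prime and wild-type cells, were chosen after seeing the data. Sums over few cells limit rows with a mean of a few FPKM, and with 1 sample a genotype no spread between embryos is known.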
